A study of Mus musculus with 75 samples.

Results

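Adult cochlear supporting cells (SCs) that carried ectopic Atoh1 and Ikzf2 and did not turn into hair cells (HCs) were compared with adult outer hair cells (OHCs), to see which OHC genes these cells already expressed as OHCs do. The SCs failing to become HCs were the 15 cells with this label among the 75 single cells of the series, and the reference was the 17 WT_P30 OHCs, with the 16 WT_P60 SCs as the starting cell type. The 15 cells came at P60 from Fgfr3-Atoh1-Ikzf2-DTR mice, which carried Fgfr3-iCreER, a conditional Atoh1 transgene, a conditional Ikzf2 allele at Rosa26 and the diphtheria toxin receptor knocked into Slc26a5. These mice were given tamoxifen at P30 and P31, to switch on both factors and a Tdtomato reporter in Pillar cells (PCs) and Deiters' cells (DCs), and diphtheria toxin at P36 (20 ng/g) to kill the endogenous OHCs. The failing cells were Tdtomato+ but were sorted by the study as negative for Myo7a and Prestin (Slc26a5), so the levels of these 2 genes are given here only as a description. WT_P30 OHCs were Tdtomato+ cells of Slc26a5-CreER/+; Ai9/+ mice given tamoxifen at P20 and P21, and WT_P60 SCs, mainly PCs and DCs, were Tdtomato+ cells of Fgfr3-iCreER+; Ai9/+ mice given tamoxifen at P30 and P31. The labels call both reference groups wild type, and all mice were C57BL/6. Failing cells and OHCs thus differed in age, driver line, toxin treatment and sequencing run as well as in identity, and these cannot be told apart. The number of mice behind each group is not given in the sources used here, so each p-value measures the spread between single cells.

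OHCs amplify sound by changing length, which they do through Prestin in their lateral wall, and they sense it with a bundle of actin-filled stereocilia whose tip links open a mechanotransduction channel. A mature OHC also holds large amounts of the calcium buffer oncomodulin (Ocm) and receives cholinergic efferent input through the α9α10 receptor. Atoh1 is the basic helix-loop-helix factor that starts HC development, and Ikzf2 (Helios) is a zinc finger factor needed for OHC maturation, whereas PCs and DCs are the SCs that surround OHCs and depend on Notch signalling and Sox2 for their identity.

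Each library held 4264780 to 15549187 gene-assigned reads in failing cells (median 6985617) and 4821150 to 7846560 in OHCs. Values are read counts per 1000000 reads (CPM) after TMM scaling. No molecular identifiers were used, so reads are not independent molecules. Transcripts of both genes were found in every failing cell. Atoh1 read 390 to 28916 CPM in the 15 cells (median 2541) and at most 21.2 CPM in OHCs. Ikzf2 read 116 to 2084 CPM in failing cells (median 533) against 35.2 to 553 CPM in OHCs (median 130). WT_P60 SCs held 0 to 156 CPM of Ikzf2 (median 15.1), and the lowest failing cell, number 7 at 116 CPM, lay inside that range. For that cell the level does not show ectopic Ikzf2. Transgene and endogenous transcripts could not be separated for these 2 genes. Myo7a was at or above 1 CPM in 3 failing cells with a highest value of 28.5 CPM, against 209 to 1024 CPM in OHCs, and Slc26a5 never passed 1.18 CPM, against 794 to 2604 CPM. Failing cells had 6928 ± 1229 genes at or above 1 CPM (SD, n = 15) and OHCs 4697 ± 493 (SD, n = 17), a difference of 2232 genes. A two-sided permutation test gave p = 2e-05, the lowest value possible with 100000 resamples. Of the failing cells, 13 lay above the highest OHC (5431 genes), and WT_P60 SCs had 5542 to 7743. The 2 that did not, cells 2 and 4, also stood apart in mitochondrial reads, and results that rest on them are given without them below. The 4 failing cells numbered 1 to 4 were sequenced in one run, cells 5 to 14 in another and cell 15 in yet another, whereas all OHCs came from a run of their own, as did all WT_P60 SCs.

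**Figure D1:**
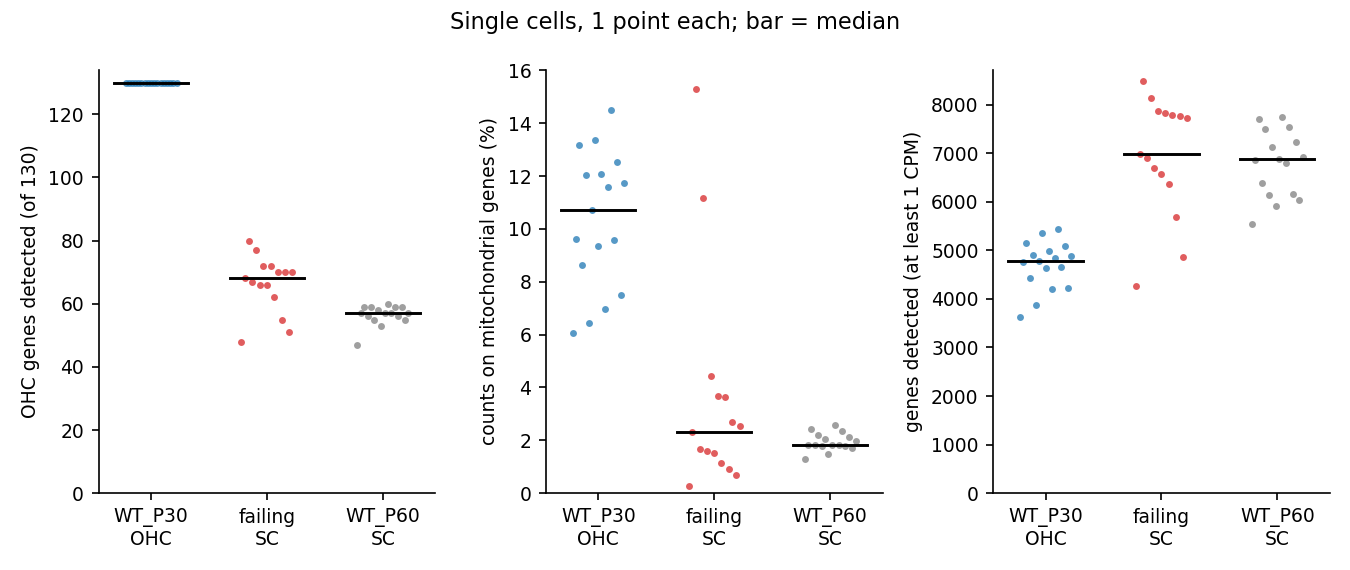
Each point is 1 cell and each bar a group's median, for WT_P30 OHCs, the SCs failing to become HCs and WT_P60 SCs, with the number of 130 OHC genes detected (left), the percent of counts on mitochondrial genes (middle) and the number of genes at or above 1 CPM (right). Failing cells have 4262 to 8477 genes detected against 5542 to 7743 in WT_P60 SCs, with 13 of 15 above every OHC and cells 2 and 4 below every WT_P60 SC. They have 48 to 80 of the 130 OHC genes, which were chosen for being detected in all OHCs. Cells 2 and 4 sit among or above the OHCs in mitochondrial counts (11.2% and 15.3%).

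OHC genes were defined as those called higher in the 17 OHCs than in the 16 WT_P60 SCs, with edgeR's quasi-likelihood test (log2 fold change over 2, Benjamini-Hochberg adjusted p under 0.001), and there were 568 of them among 11443 tested genes (4.96%). In failing cells 195 of the 568 were called lower than in OHCs (34.3%, where 2.53% of all tested genes were), and their median log2 fold change was -2.85 against 0.50 over all tested genes. Since the list was built from the same OHCs, its direction is set in part by that choice, and the 195 include Myo7a and Slc26a5. An OHC gene was counted as at OHC level when the whole 95% interval of its log2 fold change lay between -2 and 2, a less than 4-fold difference either way. Only 10 of the 568 met this (1.76%), where 9.38% of all tested genes did, and 1 of them, Reep5, also met the narrower limit of -1 to 1 (0.787% of all tested genes). The other OHC genes were 4 called higher than in OHCs and 359 that were neither called nor within the limit. Of those 359, 157 had a log2 fold change under -2 and 82 lay between -1 and 1 with intervals too wide to place them. Intervals of OHC genes had a median width of 6.33 on the log2 scale, so most single OHC genes could not be called equal to OHCs at this number of cells.

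The 10 OHC genes at OHC level were the stereocilia genes Espn and Pls1, the endoplasmic reticulum gene Reep5, Tspan13, Mlxip and 5 genes of the mitochondrial genome. Against WT_P60 SCs, 3 of them, Espn, Pls1 and Reep5, were called higher. In all, 186 of the 568 OHC genes were called higher in failing cells than in WT_P60 SCs (32.7%, where 3.38% of all tested genes were). Both this count and the OHC gene list use the same WT_P60 SCs. Of the 186, 173 were not called different from OHCs, 9 were called lower than OHCs and 4 were called higher.

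Pls1 encodes plastin 1 (fimbrin), which crosslinks the actin filaments of the stereocilia core. It read 52.0 to 1139 CPM in failing cells (median 574), 181 to 1146 CPM in OHCs (median 541) and at most 158 CPM in WT_P60 SCs (median 20.8). The failing cells and OHCs overlapped almost fully, with 13 of 15 failing cells inside the OHC range, and 13 of the 15 lay above the highest WT_P60 SC. The log2 fold change against OHCs was -0.01 (95% interval -1.36 to 1.34, edgeR adjusted p = 0.997), and against WT_P60 SCs it was 3.60 (edgeR adjusted p = 3.07e-04). Pls1 stayed within the limit when any single cell was left out, from -0.12 to 0.09. When each cell's count of detected genes was added as a covariate it was -0.66, and the interval then passed the limit.

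Espn encodes espin, an actin-bundling protein that sets stereocilia length. No read of it was found in any of the 16 WT_P60 SCs, and it was detected in all 15 failing cells. It read 40.3 to 1536 CPM in failing cells (median 189) and 203 to 1501 CPM in OHCs (median 540), so that the mean of failing cells was 48.0% of the OHC mean and at least 723-fold above WT_P60 SCs. The groups overlapped only in part: 10 failing cells lay below the lowest OHC, 4 within the OHC range and 1 above it. Cells 13 and 2 were far above the rest, at 238% and 153% of the OHC mean, while the lowest cell, number 14, was at 6.25%. The log2 fold change against OHCs was -1.06 (95% interval -1.82 to -0.30, edgeR adjusted p = 0.0311). Without cell 13 it fell to -1.54 (-2.26 to -0.82, edgeR adjusted p = 5.446e-04), and without cell 2 to -1.30 (-2.06 to -0.55), and in both cases Espn was no longer at OHC level by the rule. Espn was therefore expressed in every failing cell, but below the OHC range in most of them. Within sequencing runs the median was 236 CPM in the 4 cells of the first run, 173 CPM in the 10 of the second and 195 CPM in the single cell of the last.

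Reep5 encodes a protein that shapes endoplasmic reticulum tubules. It read 128 to 962 CPM in failing cells (median 432), 171 to 1040 CPM in OHCs (median 594) and at most 288 CPM in WT_P60 SCs (median 100). Of the failing cells, 14 of 15 lay within the OHC range and 10 lay above the highest WT_P60 SC. Its log2 fold change was -0.12 against OHCs (95% interval -0.86 to 0.61, edgeR adjusted p = 0.882) and 2.04 against WT_P60 SCs (edgeR adjusted p = 7.43e-05). Of the 568 OHC genes it was the one whose interval stayed closest to 0. Tspan13, a tetraspanin, read 4.46 to 1456 CPM in failing cells (median 409) and 122 to 1782 CPM in OHCs (median 657), and Mlxip, a glucose-responsive transcription factor, 0 to 814 CPM (median 211) against 89.0 to 1086 CPM (median 587). Both had 95% intervals that reached close to the limit (-1.87 to 0.26 and -1.99 to 0.15), and neither was called above WT_P60 SCs (edgeR adjusted p = 0.0516 and 0.0595). Mlxip stayed within the limit in 18 of 32 fits that left out 1 cell and in 6 of 17 settings. Those 6 include the main fit and gene lists read with the same interval. Just outside the limit were Zmiz1 (-2.04 to 1.64) and Mreg (-2.05 to 0.96).

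The promoters of Espn and Pls1 are shown because these are the 2 bundle genes at OHC level and because Atoh1, present in all failing cells, is a factor that binds E-boxes. The sequences are the 250 bases upstream of RefSeq transcript starts in GRCm38.p6, both genes on the minus strand, written 5′ to 3′ with each CANNTG E-box in capitals. Espn (ENSMUSG00000028943.18) spans chr4:152120331-152152371, and its 3 windows lie at chr4:152152390-152152639, ahead of the gene, and at chr4:152136326-152136575 and chr4:152128926-152129175, inside it. Pls1 (ENSMUSG00000049493.13) spans chr9:95752642-95845311, and its window at chr9:95845280-95845529 overlaps the annotated 5′ end of the gene.
Espn first start: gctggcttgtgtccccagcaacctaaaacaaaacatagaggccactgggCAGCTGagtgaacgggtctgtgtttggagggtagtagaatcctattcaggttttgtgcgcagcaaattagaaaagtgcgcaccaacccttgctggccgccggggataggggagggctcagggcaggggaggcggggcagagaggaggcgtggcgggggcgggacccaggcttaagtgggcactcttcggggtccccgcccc
Espn second start: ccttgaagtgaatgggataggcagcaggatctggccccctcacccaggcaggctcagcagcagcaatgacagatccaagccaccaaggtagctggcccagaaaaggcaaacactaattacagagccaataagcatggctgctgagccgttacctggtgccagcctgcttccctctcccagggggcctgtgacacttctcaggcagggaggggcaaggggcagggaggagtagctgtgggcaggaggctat
Espn last start: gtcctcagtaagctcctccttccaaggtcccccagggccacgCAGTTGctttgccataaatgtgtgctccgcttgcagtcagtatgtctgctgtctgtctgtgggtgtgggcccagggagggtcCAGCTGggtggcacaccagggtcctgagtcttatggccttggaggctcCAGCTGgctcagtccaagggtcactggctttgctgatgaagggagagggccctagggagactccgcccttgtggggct
Pls1: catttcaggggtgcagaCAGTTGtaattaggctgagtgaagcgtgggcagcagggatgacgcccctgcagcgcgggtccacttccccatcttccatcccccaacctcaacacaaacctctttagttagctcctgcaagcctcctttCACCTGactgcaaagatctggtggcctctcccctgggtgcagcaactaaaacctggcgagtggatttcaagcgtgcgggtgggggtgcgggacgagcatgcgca

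The first Espn window held 1 E-box, the second 0 and the last 3, and the Pls1 window held 2. The form CAGCTG made up 1 of these in the first Espn window, 2 in the last and 0 in Pls1. Both motifs read the same on the opposite strand, and each match to the specific form is also an E-box match. E-boxes of any form occurred in 66.2% of 32841 RefSeq promoter windows of this length, and the form named above in 13.0%. A match describes the letters in these windows only, and binding was not measured in this series.

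**Figure D2:**
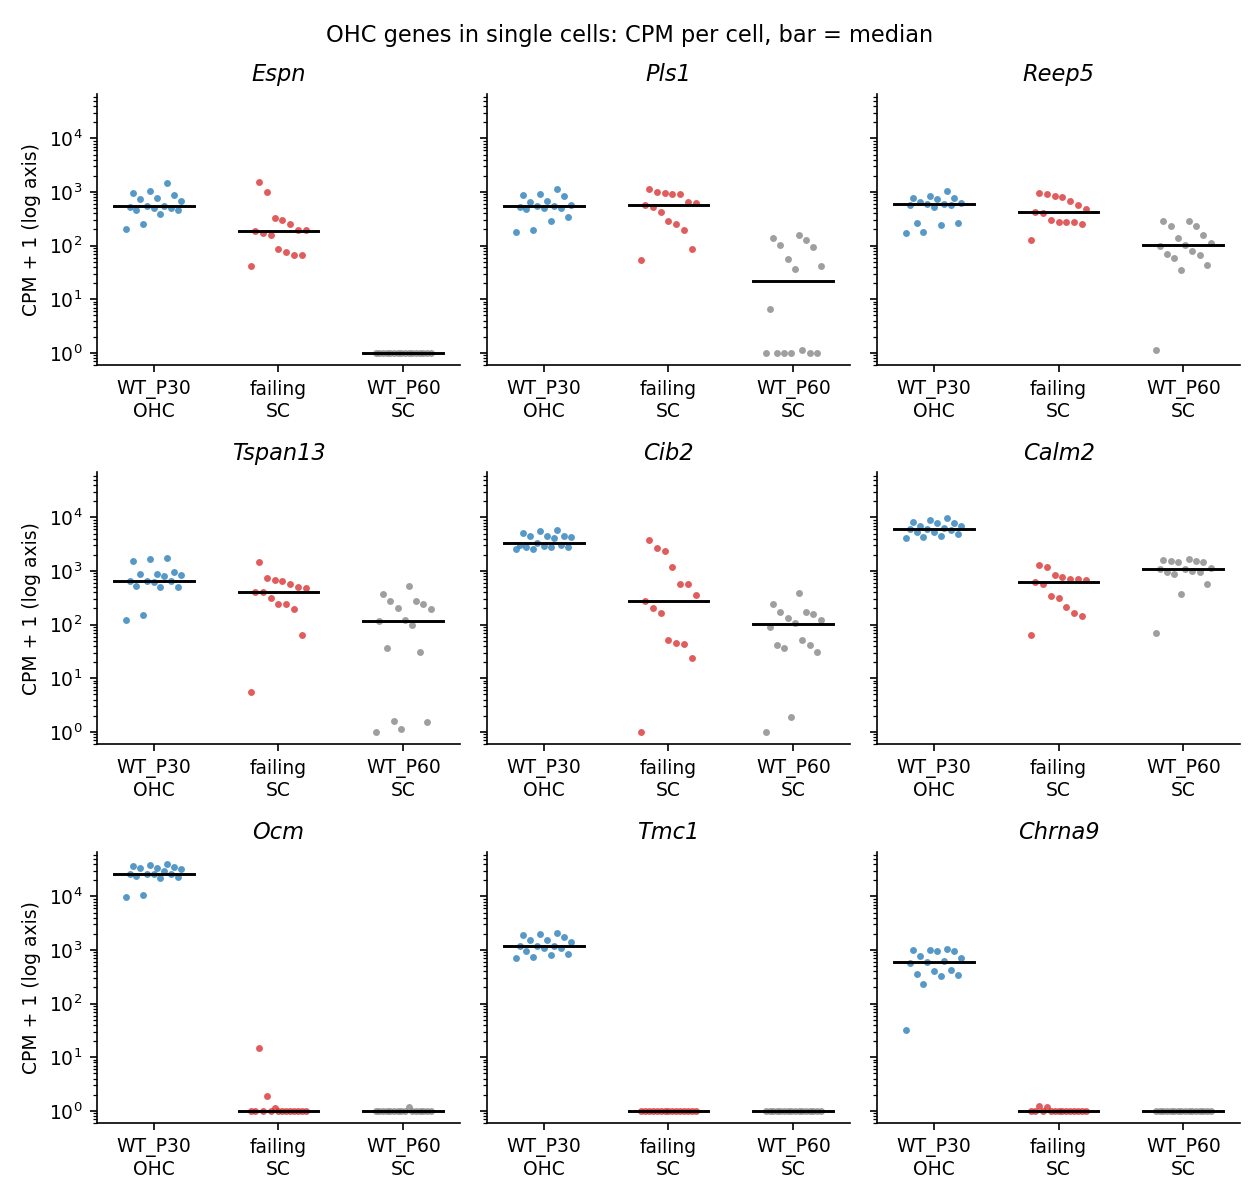
CPM + 1 per cell on a log axis for 9 OHC genes in WT_P30 OHCs, the SCs failing to become HCs and WT_P60 SCs, with 1 point per cell and a bar at each group's median. Pls1 and Reep5 of failing cells lie inside the OHC range in 13 and 14 of 15 cells, Espn lies between WT_P60 SCs (all at 0) and most OHCs, Cib2 spreads from WT_P60 SC to OHC levels, Calm2 lies with WT_P60 SCs below every OHC, and Ocm, Tmc1 and Chrna9 are at or near 0 in failing cells.

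The 5 mitochondrial genes at OHC level, mt-Co2, mt-Co3, mt-Cytb, mt-Nd5 and mt-Nd6, encode subunits of the respiratory chain. Their log2 fold changes against OHCs were between -0.96 (mt-Cytb) and -0.27 (mt-Co2). The medians of failing cells were only 23.9% (mt-Nd5) to 50.4% (mt-Co2) of the OHC medians. Cells 2 and 4 held 36104 and 39991 CPM of mt-Cytb, above the highest OHC (25678 CPM), whereas the other 13 cells held 1.66 to 10045 CPM, 12 of them below the lowest OHC (8906 CPM). All mitochondrial genes together took 11.2% and 15.3% of the reads of cells 2 and 4, 0.27% to 4.45% of the other 13, 6.05% to 14.5% of OHCs and 1.30% to 2.59% of WT_P60 SCs. Cells 2 and 4 also had the fewest genes detected of the failing cells, 4859 and 4262, and the part of RNA quality in these levels was not tested. Without both cells, 8 OHC genes were at OHC level and 5 of the original 10 were among them. These were Espn, Pls1, Reep5, Tspan13 and, of the mitochondrial genes, mt-Co2 alone. The levels of mt-Co3, mt-Cytb, mt-Nd5 and mt-Nd6 thus rested on these cells. Without cell 2 alone the count was 6, since Espn, Mlxip, mt-Co3, mt-Cytb and mt-Nd5 left the limit and 1 other gene entered it. Nuclear copies of mitochondrial sequence can share reads with these genes.

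A second reading of the same question used the cells one by one, over the 130 OHC genes detected in all 17 OHCs (core OHC genes). This reading was added after the data were seen. Failing cells had 48 to 80 of the 130 at or above 1 CPM (median 68), WT_P60 SCs 47 to 60. In the median failing cell the typical core gene reached 1.20% of its OHC median, and in the highest cell, number 7, 4.67%. For 61 of the 130 genes all 15 failing cells lay below the lowest OHC, and 72 were called lower (55.4%, where 2.53% of all tested genes were). The genes were chosen for their presence in OHCs, so both counts are a description. For 25 genes at least 8 of the 15 failing cells lay inside the OHC range, and for 11 of them at least 12 did. By the same count, 13 genes had at least 8 of the 16 WT_P60 SCs inside the OHC range. The genes with 14 failing cells inside were Reep5 and Atp6v1b2, a subunit of the proton pump of vesicles, and those with 13 were Pls1, Tspan13, Triobp, Card19 and Ndufs5-ps. Several of these OHC ranges reach very low values, since the lowest OHC held 7.90 CPM of Triobp, 2.31 CPM of Card19 and 1.44 CPM of Ndufs5-ps. Being inside such a range was also common in WT_P60 SCs, with 15 of 16 inside for Triobp, 16 for Ndufs5-ps and 9 for Atp6v1b2 and Card19, but 4 for Reep5 and none for Pls1.

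**Figure D3:**
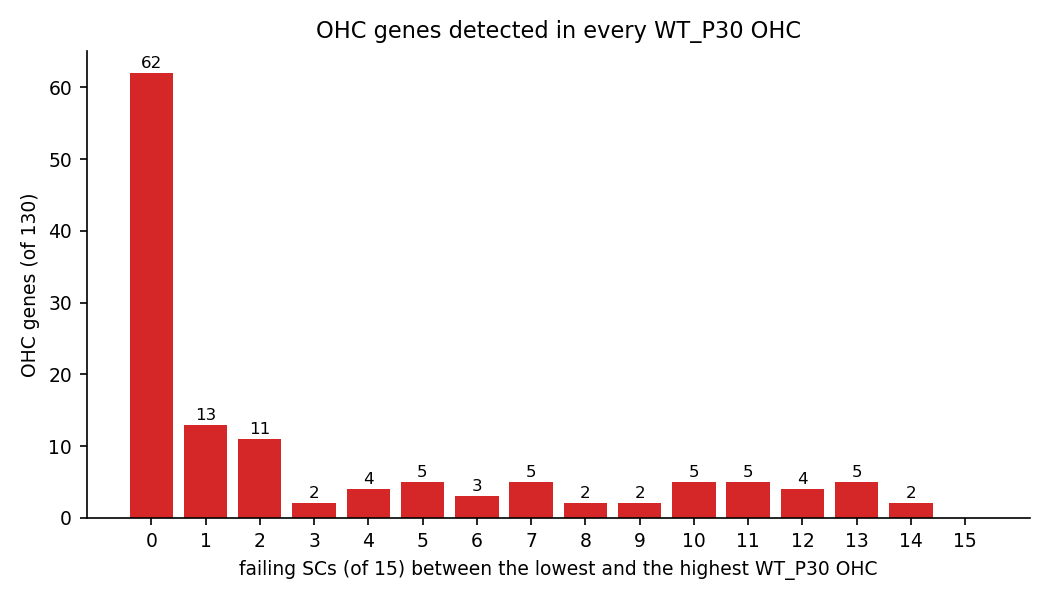
For each number of failing cells inside the OHC range (x axis, 0 to 15), the number of the 130 core OHC genes with that many cells inside (y axis). The highest bar is at 0, with 62 genes that have none of the 15 failing cells in the OHC range, and 11 genes have at least 12.

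Cell 7 carried more of the OHC list than any other failing cell, with 245 of the 568 OHC genes at or above 1 CPM against 109 to 207 in the other 14, 273 to 368 in OHCs and 49 to 68 in WT_P60 SCs. OHC genes took 2.1% to 10.9% of the reads in failing cells, 19.7% to 28.6% in OHCs and 1.37% to 2.13% in WT_P60 SCs. The highest shares in failing cells were in cells 2 (10.9%) and 4 (9.66%). The OHC list includes genes of the mitochondrial genome, and all mitochondrial genes took 11.2% and 15.3% of the reads of these 2 cells. By number of OHC genes at or above 1 CPM, cell 4 was the lowest of all failing cells with 109, and cell 2 had 135.

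Of 8 genes of the mechanotransduction complex tested, 3 were called lower in failing cells than in OHCs, 0 higher and 0 were at OHC level. The shares of all tested genes were 2.53% lower, 12.2% higher and 9.38% at OHC level. With 8 genes, both counts of 0 are near those shares. Tmc1, a pore subunit of the channel, had no read in any failing cell and 698 to 2088 CPM in OHCs (median 1190), at least 3011-fold lower. Cdh23, one partner of the tip link, had no read in failing cells either and a median of 299 CPM in OHCs, at least 760-fold lower. Lhfpl5, which joins the tip link to the channel, read at most 13.2 CPM against 606 to 3741 CPM in OHCs, a log2 fold change of -10.54 ± 1.58 (SE, edgeR adjusted p = 1.81e-07). In all 3 genes every failing cell lay below every OHC. Cib2, which binds TMC1, was detected in 14 failing cells at 0 to 3828 CPM (median 271), against 2563 to 5700 CPM in OHCs (median 3268) and 0 to 396 CPM in WT_P60 SCs (median 99.5). Cells 2 and 5 were inside the OHC range and the other 13 were below it. Cib2 was called higher than in WT_P60 SCs (log2 fold change 2.89, edgeR adjusted p = 1.79e-04) and was not called against OHCs (-2.18, 95% interval -3.31 to -1.04, edgeR adjusted p = 0.00165). That verdict rested on single cells: Cib2 was called lower without cell 2 (-2.61, edgeR adjusted p = 2.32e-04), and likewise without cell 5 (-2.44), cell 9 (-2.39) or cell 6 (-2.08), and when scaled by library size alone. Exons of Sh2d7 on the other strand cover 15.8% of Cib2 exons, and the strand setting of the counting is not given in the sources used here. Pcdh15, the other tip link partner, showed no call in either direction (0.23, 95% interval -1.72 to 2.19), and it was not an OHC gene by the rule.

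Of 20 stereocilia genes tested, 2 were at OHC level (Espn and Pls1), 5 were called lower and 2 higher, where 9.38% of all tested genes were at OHC level, 2.53% lower and 12.2% higher, so that the counts at OHC level and higher were near the shares over all genes. The 5 lower genes were Strc, the coupling protein stereocilin, Grxcr1 and Grxcr2, which regulate bundle growth, Xirp2, an actin-binding protein, and Ptprq, a shaft connector phosphatase, with log2 fold changes from -13.55 (Strc) to -12.14 (Ptprq). Strc read at most 0.471 CPM in failing cells against 214 to 1456 CPM in OHCs, without overlap. The 2 higher genes were Fscn1, an actin crosslinker found also in SCs, at 0 to 331 CPM in failing cells and without a read in OHCs (at least 108-fold), and Tprn, which sits at the stereocilia base, at 0 to 108 CPM against at most 0.552 CPM. Triobp, which forms the rootlets, was at 25.7% of the OHC mean (log2 fold change -1.96, 95% interval -3.07 to -0.86, edgeR adjusted p = 0.00397) and was not called.

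Among Usher and ankle link genes, 2 of 6 tested were called lower, where 2.53% of all tested genes were. These were Clrn1 and Clrn2, both without a read in failing cells (at least 812-fold and at least 239-fold), and Clrn2 was also at 0 in some OHCs. Ush1c (harmonin), a scaffold of the tip link, was within the limit (-0.39, 95% interval -1.79 to 1.00) but was not an OHC gene, as WT_P60 SCs held 143 to 581 CPM of it. Of 6 HC myosins tested other than Myo7a, 2 were called lower. Myo15, the motor that carries the tip complex, read at most 37.1 CPM against 551 to 3602 CPM in OHCs, and Myo3a, another tip motor, at most 0.893 CPM against a median of 2.47 CPM. Myo6, the motor at the base of the bundle, was present in all 15 failing cells at 68.3 to 1102 CPM against 990 to 2661 CPM in OHCs, with 14 of 15 below the lowest OHC. Its log2 fold change of -1.94 (edgeR adjusted p = 8.49e-07) stood just short of the fold limit for a call, which it passed with DESeq2 size factors or library size alone. WT_P60 SCs were at 223 to 1634 CPM.

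**Figure D4:**
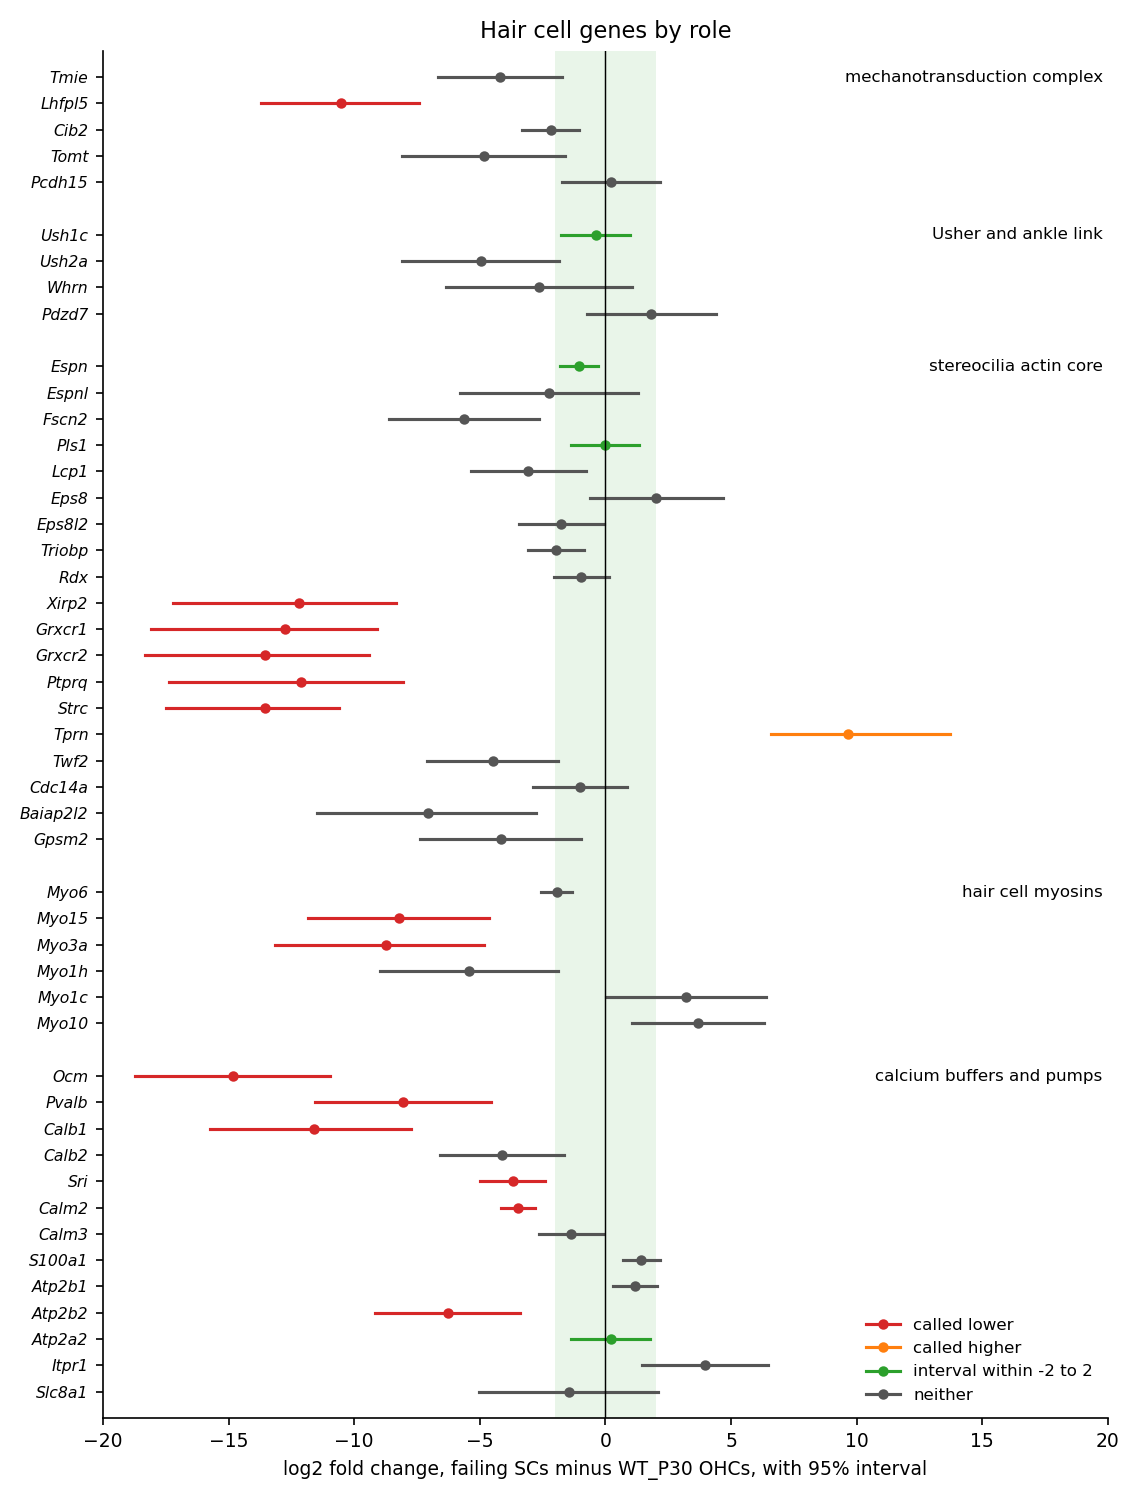
Log2 fold change of failing cells minus WT_P30 OHCs (x axis, bars are 95% intervals) for selected genes grouped by role (y axis), with the band from -2 to 2 shaded. Genes without a read in 1 group, such as Tmc1, have no interval and are not drawn, nor is Myo7a, which was used to sort the cells. Espn and Pls1 are the stereocilia genes whose bars stay inside the band, while Ocm, Strc and Lhfpl5 lie far to the left.

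Of 14 calcium handling genes tested, 6 were called lower (2.53% of all tested genes) and 0 higher (12.2%). The buffers that fill mature OHCs were near 0. Ocm read 9595 to 40514 CPM in OHCs (median 26313), and in failing cells it reached 1 CPM in a single cell, number 2, at 14.1 CPM, so that no cell passed 0.0506% of the OHC mean. The log2 fold change was -14.82 ± 1.94 (SE, edgeR adjusted p = 5.53e-09), without overlap. Pvalb and Calb1, the other EF-hand buffers of HCs, read at most 35.8 and 1.88 CPM against OHC medians of 744 and 211 CPM. Calm2, one of the calmodulin genes, was present in all failing cells but lower, at 61.7 to 1316 CPM against 4137 to 9955 CPM in OHCs, a log2 fold change of -3.49 ± 0.34 (SE, edgeR adjusted p = 2.96e-13), and WT_P60 SCs were at 67.3 to 1694 CPM. Sri (sorcin) and Atp2b2, the plasma membrane calcium pump of the bundle, were also called lower (-3.70 and -6.27), both without overlap. S100a1 was at 101 to 26554 CPM (median 11074) in failing cells, 1613 to 5466 CPM in OHCs and 6691 to 15946 CPM in WT_P60 SCs, and was not called (log2 fold change 1.43, edgeR adjusted p = 0.00164).

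Of 9 ribbon synapse genes tested, 3 were called lower (2.53% of all tested genes) and 1 higher (12.2%). Cacna1d, the calcium channel that drives release, read at most 0.707 CPM in failing cells against 91.3 to 2354 CPM in OHCs, and Cabp2, its calcium-binding regulator, at most 29.8 CPM against 271 to 1929 CPM. Otof, the calcium sensor of release, read at most 0.573 CPM against an OHC median of 434 CPM. The gene called higher was Rims2, a presynaptic scaffold, which was at or above 1 CPM in 4 failing cells with a highest value of 565 CPM and never passed 0.505 CPM in OHCs. On the efferent side, 5 of 8 genes tested were called lower. Chrna9 and Chrna10, the subunits of the efferent receptor, read at most 0.245 CPM and 0 CPM, against OHC medians of 599 and 477 CPM. Kcnn2, the SK2 channel that the receptor activates, read at most 16.6 CPM against 40.7 to 820 CPM, and Kcna10 and Kcnma1, both potassium channels, at most 1.41 CPM and 0 CPM. Rapsn, which clusters the receptor, was called higher, at 0 to 22.1 CPM in failing cells and no read in OHCs. Kcnma1 and Otof were also at 0 in some OHCs, so that single failing cells at 0 fell inside the OHC range. Exons of Art1 on the other strand cover 39.0% of Chrna10 exons. In the lateral wall list, 1 of the 4 genes tested other than Slc26a5 was called lower. This was Lmo7, an actin-binding protein of the cuticular plate, which read 0 to 205 CPM against 490 to 3912 CPM and was called higher than in WT_P60 SCs, where it had no read. The spectrin Sptbn1 was within the limit (-0.21, 95% interval -1.31 to 0.89) but was not an OHC gene.

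Of 16 transcription and RNA-processing factors of HCs tested, 3 were called lower, 1 higher and 3 were at OHC level. Among all tested genes 2.53% were lower, 12.2% higher and 9.38% at OHC level, so the counts higher and at OHC level were not far from those shares. Pou4f3, needed for HC survival and a direct target of Atoh1, had no read in any failing cell. OHCs held 131 to 1212 CPM of Pou4f3, so failing cells were at least 1469-fold lower. Atoh1 was measured here as RNA only, and its action on Pou4f3 was not tested. Lbh and the splicing factor Rbm24 read at most 24.6 and 42.8 CPM, against OHC medians of 564 and 531 CPM, with every failing cell below every OHC in both. The gene called higher was Atoh1, and Ikzf2 had a log2 fold change of 1.91 and was not called (edgeR adjusted p = 0.0108). Gfi1, a zinc finger factor of HCs, was detected in 2 failing cells, at 352 CPM in cell 7, within the OHC range of 24.6 to 442 CPM, and Barhl1, a homeobox factor, in 4 cells at up to 133 CPM, against 1.87 to 497 CPM in OHCs. Both had no read in WT_P60 SCs and were called above them (edgeR adjusted p = 2.63e-05 and 4.12e-07). Lhx3 was detected in 2 cells at up to 143 CPM. Among the factors at OHC level were Eya1 and Gata3, otic factors that WT_P60 SCs also held at medians of 238 and 290 CPM, and neither was an OHC gene by the rule.

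The other Tdtomato+ cells of the same mouse line were set against the same 17 OHCs, and the comparisons therefore share those cells and are given side by side. Which mouse each cell came from is not given. A sequencing run with 6 nascent HCs and 5 OHC-like cells held 0 failing cells, as did a run with 4 and 3. The run with 10 failing cells held 1 nascent HC and 0 OHC-like cells, so group and run cannot be fully told apart. Of the 568 OHC genes, 195 were called lower in the 15 failing cells, 77 in the 16 nascent HCs (Myo7a+ and Prestin-, where 1.42% of all tested genes were) and 43 in the 11 OHC-like cells (Myo7a+ and Prestin+, 0.577%). At OHC level were 10 in failing cells, 25 in nascent HCs (10.4% of all tested genes) and 24 in OHC-like cells (8.14%). Espn was at a median of 189 CPM in failing cells, 564 CPM in nascent HCs and 690 CPM in OHC-like cells. Pls1 had medians of 574, 537 and 324 CPM and Reep5 of 432, 890 and 1230 CPM in the same order. Cib2 had medians of 271, 2250 and 4010 CPM and Chrna9 of 0, 801 and 688 CPM. By the interval rule Espn, Pls1 and Reep5 were at OHC level in all 3 groups, and Cib2 and Chrna9 were in nascent HCs and OHC-like cells but not in failing cells. Differences between the 3 groups of Tdtomato+ cells were not tested. The groups were sorted by Myo7a and Prestin, whose genes are among the 568. Counts of calls also depend on the number of cells in a group and their spread.

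Genes of SCs were higher in failing cells than in OHCs. Of 1184 genes called lower in OHCs than in WT_P60 SCs (10.3% of all tested genes), 997 were called higher in failing cells than in OHCs (84.2%, where 12.2% of all tested genes were) and 0 lower. This list too was built from the same OHCs. The count depends on the fit, since with only failing cells and OHCs fitted and filtered 80 genes in all were called higher and 129 lower. Of 21 SC regulators tested, 16 were called higher and 0 lower. Sox2, the factor that marks SCs, read 0 to 211 CPM (median 58.8) and Sox9 0 to 1590 CPM (median 383) in failing cells, and OHCs had no read of either, at least 158-fold and at least 1073-fold. Hes1, a target of Notch signalling, was at or above 1 CPM in 13 failing cells (0.143 to 896 CPM over all 15) and had no read in any OHC. Of 14 genes of SC structure tested, 11 were called higher and 0 lower, among them Gjb6, the gap junction gene connexin 30, at 0 to 1311 CPM against 173 to 4931 CPM in WT_P60 SCs, and Otog, a component of the acellular membranes, at 0.157 to 8636 CPM against 168 to 993 CPM. OHCs had no read of either.

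Against WT_P60 SCs, 387 genes were called higher in failing cells (3.38%) and 90 lower (0.787%). This balance turned with limma (168 higher and 268 lower) and held with DESeq2 (742 and 191). With edgeR, 163 genes were called higher than in both OHCs and WT_P60 SCs. Heyl, a Notch target, was at 0 to 1699 CPM (median 766) in failing cells, at most 159 CPM in OHCs and without a read in WT_P60 SCs, at least 1649-fold. It was an OHC gene by the rule and one of the 4 called above OHCs, together with Dmpk, a kinase, Ptpru, a receptor phosphatase, and Rab3b, a small GTPase of secretory vesicles. The OHC median of all 4 was 0 CPM, so they passed the OHC rule through a few OHCs, and with DESeq2 size factors Heyl and Ptpru were no longer called above OHCs. Lgr5, a Wnt pathway receptor and progenitor marker, read 0 to 4144 CPM (median 190) in failing cells, at most 71.1 CPM in WT_P60 SCs and at most 2.21 CPM in OHCs. Cd63, a tetraspanin of late endosomes, was at or above 1 CPM in 12 failing cells (0.327 to 1824 CPM over all 15) and had no read in WT_P60 SCs, at least 1149-fold. Id2, an inhibitor of basic helix-loop-helix factors, was at 66.4 to 7248 CPM in failing cells against 0 to 667 CPM in OHCs (log2 fold change 4.51, edgeR adjusted p = 2.09e-06), and WT_P60 SCs held 329 to 3287 CPM. Hes6, which promotes HC differentiation, was detected in 10 failing cells with a highest value of 3322 CPM in cell 2 and was not called (log2 fold change 3.88, edgeR adjusted p = 0.0185).

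The smallest adjusted p values among genes higher in failing cells belonged to Mbnl2, a splicing regulator, at 29.2 to 439 CPM against no read in OHCs (at least 521-fold), and to epithelial and membrane genes such as Cdh1 (at least 545-fold) and Cmtm8 (at least 370-fold), and WT_P60 SCs also expressed Mbnl2 (23.7 to 837 CPM). Among genes lower in failing cells, Calm2, Chrna9, Cacna1d and Strc were in the first 10.

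Stress and immediate early genes moved with the comparison. Of 10 tested, 7 were called higher in failing cells (12.2% of all tested genes) and 0 lower (2.53%). Their summed level was 493 to 38528 CPM in failing cells (median 6328), 0.33 to 3631 CPM in OHCs and 2048 to 17787 CPM in WT_P60 SCs, and their part in the differences was not tested. Fos, for example, was at 0.255 to 16324 CPM in failing cells and at most 220 CPM in OHCs. Markers of other cell types were near 0. The 3 macrophage markers had no read in any failing cell, the 4 blood markers summed to at most 4.72 CPM, the 3 fibroblast markers to at most 2.86 CPM, the 2 endothelium markers to at most 0.98 CPM and the 3 neuron markers to at most 72.0 CPM. Of 4 inner hair cell markers 1 was tested, Otof, and all 4 summed to at most 20.4 CPM in failing cells.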

How the data were processed

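Single Tdtomato+ cells were picked by hand and amplified with the SMART-Seq HT kit, and each library is 1 cell. As stated in the study's methods and processing notes, reads went through FastQC 0.11.9 and Trimmomatic 0.39 and were mapped to GRCm38 with HISAT2 2.1.0, and the authors deposited raw read counts per gene made with HTSeq 0.10.0. The annotation release and strand setting of the counting are not given in the sources used here. The TPM values named with StringTie 1.3.5 were not analysed here. The table held 55291 genes. The construct row WPRE (0.0254% of all counts) was left out.

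Counts of all 5 groups were fitted together with edgeR 4.0.16 in R 4.3.3 (TMM scaling, filterByExpr with a count minimum of 10, quasi-likelihood F-test), which left 11443 genes for Benjamini-Hochberg adjustment. A gene was called with a log2 fold change beyond 2 and an adjusted p under 0.001, after the limits of the study, which names a p without saying whether it was adjusted. The 95% interval came from the same fit. Where 1 group had no read, no interval was given and the fold is set against a floor. The floor was 3 counts in each cell, as CPM averaged over the cells of the group. Detection means at least 1 CPM of the unscaled total. The fit and its interval rule were tested on simulated counts. Intervals and floors cover the spread between cells or counting error only.

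Alternatives were DESeq2 1.42.0, limma 3.58.1, other scalings, filters and thresholds, fewer cells, thinning to 4264780 reads, a covariate and a replicate block. The members, gene lists and rules were chosen with earlier results of these data known. Genes named were the members of role lists that the study names or that had the highest mean level, the OHC genes at OHC level, and the 10 with the smallest adjusted p in each direction. Pcdh15, Heyl, Dmpk, Ptpru, Rab3b, Cd63, Lgr5, Hes6, Gfi1, Barhl1, Lhx3, Rims2, Rapsn, Kcnma1, the genes near the interval limit and those of the range count were named after their values were seen, as were other members that were called. Promoters are from RefSeq (GRCm38.p6) and gene positions from GENCODE M21. No library pair of the 32 failing cells and OHCs had identical counts.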

Additional observations from a re-analysis of the deposited data

How the results depend on the processing

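Signs were followed for the named genes only, at most 163 in each alternative. Among these no called difference changed sign, whereas some values that were not called did, those of Pls1, Reep5, mt-Co2, Pcdh15, Sptbn1 and Gata3 among them. The number of genes called between failing cells and OHCs, 1680 with edgeR, was 2763 without a filter on low counts, 2782 with wider thresholds (log2 fold change over 1, adjusted p under 0.05), 1032 with genes detected as a covariate and 209 (80 higher, 129 lower) when only these 2 groups were fitted with their own filter, which tested 5685 genes. Of the called genes 82.8% were higher in failing cells, and 38.3% in that last fit. The count of OHC genes called lower, 195, was 102 of 250 in the same fit and 407 of 1008 with the wider thresholds. OHC genes themselves numbered 568, 1036 without a filter and 1008 with the wider thresholds. The count called against WT_P60 SCs, 477, was 933 with DESeq2, 1121 with the wider thresholds and 304 with the replicate block, and 81.1% of the calls were higher in failing cells, against 38.5% with limma. The cause of these differences was not tested.

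The count of OHC genes at OHC level, 10, was 5 with library size alone, 18 with limma (2 of them shared), 6 with the replicate block, 4 with only the failing cells of the second run, 53 of 1008 with the wider thresholds, 1 with limits of -1 to 1, 24 of 849 with OHC genes defined by DESeq2 and 25 of 130 by the range count (4 shared), the last added after the data were seen. Reep5 stayed within the limit in each of 17 settings, Pls1 in 15 and Espn in 11. The 17 include the main fit itself. The wider thresholds and the OHC genes defined by DESeq2 reuse its intervals, so these settings are not separate checks of a gene. Espn was outside it with DESeq2, with other scalings, with limma, with the replicate block and at the narrower limits, and its log2 fold change ran from -1.66 to -0.63. The ranges were -0.66 to 0.11 for Pls1 and -0.60 to 0.28 for Reep5. Over all tested genes the median log2 fold change came to 0.50 with TMM, 0.17 with DESeq2 size factors and 0.34 with library size alone. Leaving out 1 cell at a time gave 1620 to 1691 genes called, 185 to 208 OHC genes called lower and 6 to 12 at OHC level.

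Replicate numbers only name cells. Deviations of same-numbered failing cells and OHCs correlated between -0.019 and 0.028, and 1 failing cell correlated best with its own number. With the replicate block 1405 genes were called and 195 OHC genes were lower. The width of the intervals limits how many genes can be placed at OHC level, and cells of 1 mouse may resemble each other.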
